A study of Mus musculus with 11 samples.

Results

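The 10 genes described here encode subunits of Polycomb repressive complex 2 (PRC2): the core genes Ezh1, Ezh2, Eed, Suz12, Rbbp4 and Rbbp7, and the accessory genes Jarid2, Mtf2, Phf1 and Phf19. They were taken by gene symbol, without regard to their values, from a table of 37224 gene rows, and each symbol had exactly 1 row. Their transcripts were compared between mouse T cell acute lymphoblastic leukaemias (T-ALL) with and without Utx (Kdm6a), an X-linked enzyme that removes methyl groups from lysine 27 of histone H3. The knockout donors were labelled Utx-/Y and the wild-type donors Utx+/+ or Utx+/Y, all on a C57/BL6 background. In both genotypes, cKit progenitors received Notch1-IC, an activated intracellular Notch1, from a retrovirus, and were then transplanted intravenously, so every leukaemia compared carried the Notch1-IC transgene and arose in a host with blood and stromal cells of its own. The leukaemic cells came from bone marrow (2 knockout and 2 wild-type samples) or spleen (3 knockout and 4 wild-type samples), and reruns, as the labels call them, make up 1 of the marrow samples in either genotype and 1 of the wild-type spleen samples. The labels state neither the age of the mice nor the number of tumours.

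PRC2 adds the methyl groups that Utx removes. Ezh2 or Ezh1 is the methyltransferase, Suz12 is the scaffold, Eed binds the methylated tail and stimulates the enzyme, and Rbbp4 or Rbbp7 holds histones. Accessory subunits bind the core in alternative forms: Jarid2 in one, and one of the Polycomb-like proteins Mtf2, Phf1 and Phf19 in another. In human T-ALL, EZH2, SUZ12 and EED are known as genes that are lost or mutated in some patients.

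The values are whole read counts that the authors pooled, 1 pool per genotype, 106445530 counts from knockout and 108015222 from wild-type leukaemias. Each count was divided by its pool's total and is given per 1000000 counts (CPM). With 1 pool on each side there is no spread between mice and no test. Every 95% interval given is an exact Clopper-Pearson interval, or a conditional interval for a ratio of ratios, and covers counting error only. Reads are not independent molecules, so these intervals can be too narrow. Calls of a higher or lower level without Utx required a combined count of at least 100, a change of at least 2-fold and an interval without 0. Over the 13833 genes with that many counts, 16.6% were called, 11.2% higher and 5.36% lower, and the median log2 ratio of knockout over wild-type was -0.07.

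Utx itself stood at 10.5 CPM in knockout and 58.3 CPM in wild-type leukaemias, a log2 ratio of -2.48 (-2.57 to -2.38). Of its paralogs, the H3K27 demethylase Kdm6b was not called, with 63.6 CPM without Utx, 39.4 CPM with it and 0.69 (0.64 to 0.75) on the log2 scale, and the Y-linked Uty was called higher at 15.6 against 1.82 CPM, or 3.09 (2.88 to 3.32). The tumour identity was checked with 10 T cell markers; all were present, with a summed level of 2705 CPM in knockout and 3450 CPM in wild-type leukaemias, and their median log2 ratio was -0.31. Thy1 was the only one called, lower at -1.06, while Cd8b1 was higher by 0.75 on the log2 scale (336 against 199 CPM), short of a call, and Cd3e stood at -0.03. Marker lists of other cells were unequal between the pools, with higher sums in the knockout pool for some and lower sums for others. The 13 granulocyte and monocyte markers summed to 2349 against 1829 CPM (9 called higher, none lower), and 7 erythroid markers to 25581 against 12787 CPM (3 called higher, none lower). The 6 NK and cytotoxic cell markers, 5 of them with at least 20 counts, summed to 227 against 244 CPM (4 called higher), the 7 stromal and endothelial markers to 116 against 95.2 CPM (2 called higher) and the 6 B cell markers to 6.61 against 7.57 CPM (1 called lower). Gzma, at 193 against 236 CPM, made up most of the NK and cytotoxic sums, while the median log2 ratio of that list was 2.14. The B cell sums held Pax5, the gene called lower, at 0.592 against 2.45 CPM. The median of the B cell list was 0.32, or -0.12 with at least 100 counts. No matched marker was at 0 in both pools. The sexes were also unequal: the X-inactivation RNA Xist stood at 0.705 against 203 CPM and the Y-linked gene Ddx3y at 65.4 against 10.4 CPM. In bulk RNA, fewer cells of a type and less RNA per cell cannot be told apart, and the part of these differences in the PRC2 values was not tested.

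All 10 PRC2 genes passed the count minimum and none was called at 2-fold, against 16.6% of all genes. The share of genes called falls with depth: it was 10.9% with a minimum of 500 counts, which all 10 genes also passed. Ezh2, Suz12, Rbbp4, Rbbp7, Jarid2 and Mtf2 had more than 10000 combined counts. Among the 3561 genes that deep, 3.99% had a log2 ratio at least as far from 0 as that of Phf19 (-0.99), so the lack of a call is common there. At 1.5-fold, 1 gene was past the threshold, Phf19, which was lower; over all genes 33.6% were past it, 18.9% higher and 14.7% lower. The 10 ratios had a median of -0.19 and ran from -0.99 for Phf19 to 0.55 for Mtf2. Genes of one role did not all lie together. Eed, Suz12, Rbbp4 and Rbbp7 lay together at log2 ratios of -0.39 to -0.47, the methyltransferase gene Ezh2 lay on the other side at 0.46, and Ezh1, Jarid2 and Phf1 lay near 0. Intervals excluded 0 for 9 of the 10 genes, as they did for 83.7% of all genes, so at this depth an interval without 0 is common. In the authors' deposited table, 8 of the 10 genes had a q-value under 0.05, 3 higher and 5 lower, against 67.8% of all genes with a deposited fold change.

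**Figure D1:**
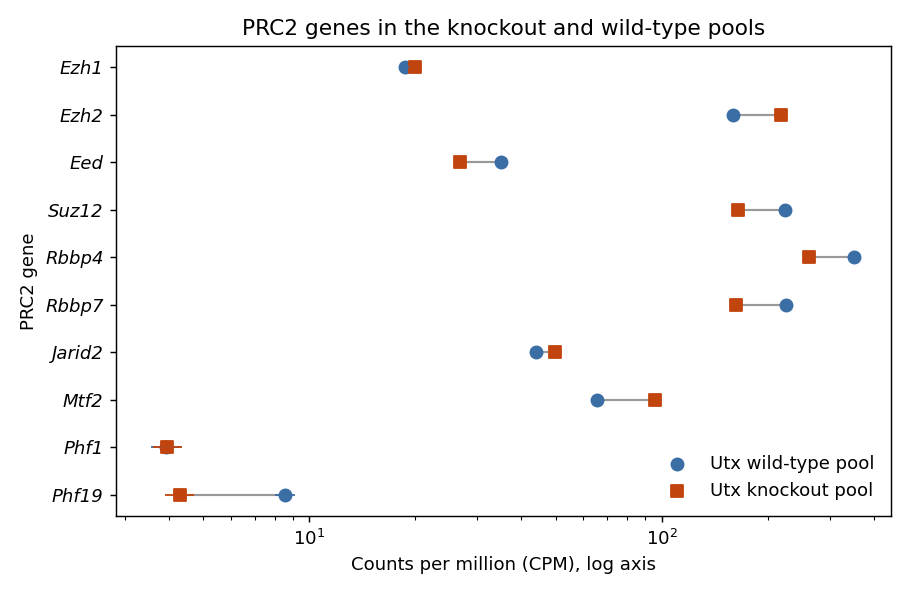
Level of each PRC2 gene in CPM (log axis) in the wild-type pool (circles) and the knockout pool (squares), with 95% counting intervals. Ezh2 and Mtf2 were higher in the knockout pool, Eed, Suz12, Rbbp4, Rbbp7 and Phf19 were lower, and the markers of Phf1, at 3.96 and 3.93 CPM, cover each other.

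**Figure D2:**
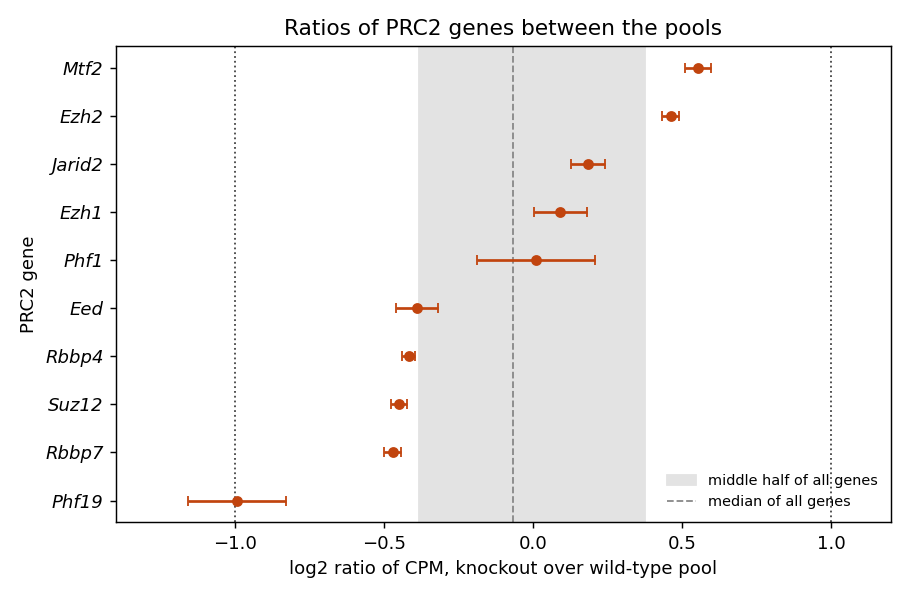
The log2 ratio of knockout over wild-type CPM for each PRC2 gene with its 95% counting interval, in order of the ratio; the grey band runs between the quartiles of all genes (-0.38 and 0.37), the dashed line is the median of all genes and the dotted lines mark 2-fold. Eed, Rbbp4, Suz12 and Rbbp7 share a narrow range below 0, and Phf19, at -0.99, lies beside the 2-fold line.

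The catalytic subunits were unequal in level and in ratio. Ezh2 (ENSMUSG00000029687, chr6:47530139-47595341, minus strand; this and all later coordinates are GRCm38 positions of the GENCODE M21 annotation) had 23320 knockout and 17185 wild-type counts, or 219 against 159 CPM. On the log2 scale the ratio was 0.46 (0.43 to 0.49), an increase of 37.7% over the wild-type pool. Ezh1 (ENSMUSG00000006920, chr11:101191115-101226463, minus strand), which is known as the form retained in resting cells, had 2126 and 2025 counts, or 19.97 against 18.7 CPM. Its log2 ratio was 0.09 (0.00 to 0.18), so the pools were close for Ezh1 and apart for Ezh2. Per kilobase of merged exons, Ezh1 made up 7.56% of the summed Ezh1 and Ezh2 level without Utx and 9.57% with it. The ratio of Ezh1 to Ezh2 counts in the knockout pool was 0.774 times that in the wild-type pool (0.725 to 0.825). Among the 3561 genes with a combined count of at least 10000, 9.88% had a log2 ratio as high as that of Ezh2.

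Reads of 50 bases that match these paralogs exactly can be told apart. The coding sequences of Ezh1 and Ezh2 were identical at 70.4% of 2143 aligned bases, with a longest common run of 17 bases. The 60 bases around that run, at the 3′ end of the coding sequences, are shown because they hold the longest stretch shared without a difference. The stretch with the fewest differing bases was not searched for. Capitals mark the 12 bases that differ (coding bases 2191 to 2250 of Ezh1 and 2179 to 2238 of Ezh2, GENCODE M21 transcripts).
Ezh1: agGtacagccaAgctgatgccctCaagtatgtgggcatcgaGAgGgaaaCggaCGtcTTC
Ezh2: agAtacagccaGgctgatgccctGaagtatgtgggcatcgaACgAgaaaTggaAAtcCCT
No word of 50 bases was shared between any 2 of the 10 genes over all their annotated transcripts. Ezh2 shared none with any other gene on its own strand, and Ezh1 shared 7 of its 7528. On the opposite strand, exons of the noncoding gene Gm26625, which had no row of counts, overlapped 2.61% of the merged exon bases of Ezh2.

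The scaffold and the reader of the mark were both lower in the knockout pool, by nearly the same factor. Suz12 (ENSMUSG00000017548, chr11:79993106-80034123, plus strand) had 17505 against 24275 counts, or 164 against 225 CPM, and a log2 ratio of -0.45 (-0.48 to -0.42). Eed (ENSMUSG00000030619, chr7:89954654-89980983, minus strand) was the least abundant of the core genes after Ezh1, at 2841 against 3780 counts, or 26.7 against 35.0 CPM. The log2 ratio of Eed was -0.39 (-0.46 to -0.32). The ratio of Eed to Suz12 counts was 0.162 without Utx and 0.156 with it, and the interval of their quotient, 0.989 to 1.099, held 1. Noncoding genes on the opposite strand, without rows of counts, overlapped both. Exons of E230029C05Rik covered 6.82% of the merged exon bases of Eed, and those of Gm26563 covered 3.60% of those of Suz12.

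The histone-binding subunits showed the same shift. Rbbp4 (ENSMUSG00000057236, chr4:129307100-129335370, minus strand) had the highest CPM of the 10 genes in both pools, at 263 against 351 CPM from 27996 and 37960 counts. Its log2 ratio was -0.42 (-0.44 to -0.40). Rbbp7 (ENSMUSG00000031353, chrX:162760402-162779092, plus strand), the only X-linked gene of the 10, stood at 163 against 226 CPM from 17369 and 24450 counts, a log2 ratio of -0.47 (-0.50 to -0.44). Rbbp4 and Rbbp7 thus kept nearly the same proportion: Rbbp7 held 38.3% of their summed counts without Utx and 39.2% with it. The 449 X-linked genes with enough counts had a median log2 ratio of -0.03 and the 13124 autosomal genes one of -0.07. Genotype and donor sex differed together, so for Rbbp7 their parts cannot be told apart.

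The coding sequences of Rbbp4 and Rbbp7 were identical at 78.4% of 1272 aligned bases, the closest pair of paralogs among those aligned, with a longest common run of 20 bases. The 60 bases that hold this run are shown for the same reason as above, with the 13 differing bases in capitals (coding bases 344 to 403 of Rbbp4 and 341 to 400 of Rbbp7).
Rbbp4: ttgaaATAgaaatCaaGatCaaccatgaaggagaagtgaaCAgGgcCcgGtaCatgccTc
Rbbp7: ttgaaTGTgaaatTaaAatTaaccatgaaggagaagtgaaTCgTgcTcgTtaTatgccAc
Of the 50-base words of Rbbp7, 6.97% were shared with the processed pseudogene Gm6382, which had 39 and 58 counts in the pools. Rbbp4 shared 0.862% of its words with other genes on its strand. On the opposite strand, exons of Sync overlapped 8.94% of the merged exon bases of Rbbp4 (Sync: 609 against 992 counts), and exons of Txlng overlapped 5.98% of those of Rbbp7 (Txlng: 3486 against 4875 counts). Exons of the noncoding gene Gm26722, without a row of counts, overlapped 9.10% of those of Rbbp4 on the opposite strand. The libraries marked strand, but no source says whether counting used it. Reads from such overlaps, also those of Ezh2, Eed and Suz12, therefore cannot be told apart.

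Because a ratio of 2 genes within a pool needs no scaling between pools, the balance among subunits was also compared directly. The knockout pool held 1.33 Ezh2 counts for each Suz12 count and the wild-type pool 0.708, so that the proportion was 1.88 times as high (1.83 to 1.93). Against Eed the proportion of Ezh2 was 1.81 times as high (1.71 to 1.90), against Rbbp4 1.84 times (1.79 to 1.89) and against Rbbp7 1.91 times (1.86 to 1.96). Among Eed, Suz12, Rbbp4 and Rbbp7, the largest pairwise difference was 1.06-fold, between Eed and Rbbp7. The 4 genes thus lay within 0.08 of each other on the log2 scale, a range that held 4.82% of all genes. That range was set by the 4 ratios themselves, and the core genes Ezh1 and Ezh2 lay outside it. The share therefore does not show how unusual this closeness is. Of all 45 pairs of the 10 genes, 7 differed between pools by at least 2-fold, 17 by at least 1.5-fold and 9 by no more than 1.1-fold.

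**Figure D3:**
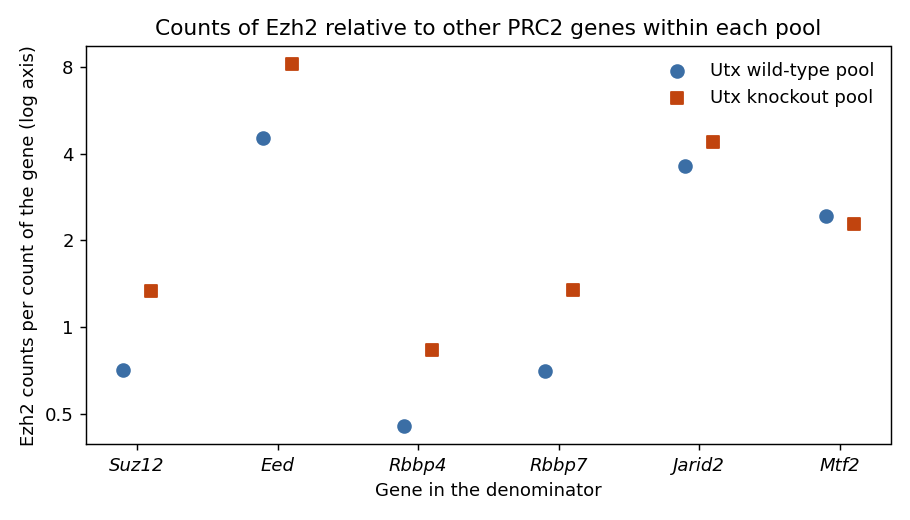
Counts of Ezh2 per count of 6 other PRC2 genes within the wild-type pool (circles) and the knockout pool (squares), log axis. Relative to Suz12, Eed, Rbbp4 and Rbbp7 the squares lie 1.81 to 1.91 times as high as the circles, while relative to Mtf2 the 2 pools lie close, at 2.28 and 2.43.

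The Polycomb-like accessory genes went in different directions. Mtf2 (ENSMUSG00000029267, chr5:108065674-108109004, plus strand), which binds unmethylated CpG-rich DNA and brings PRC2 to it, had 10211 against 7066 counts, or 95.9 against 65.4 CPM. The ratio of 0.55 (0.51 to 0.60) on the log2 scale was the highest of the 10 genes, and an increase of 46.6%. Exons of Tmed5, on the opposite strand, overlapped 6.93% of the merged exon bases of Mtf2 (Tmed5: 15528 against 12644 counts). Such reads cannot be told apart here either. Phf19 (ENSMUSG00000026873, chr2:34893757-34914026, minus strand) had 456 against 922 counts, or 4.28 against 8.54 CPM. Its log2 ratio of -0.99 (-1.16 to -0.83) was the lowest of the 10 and just short of the 2-fold threshold, which lies inside its interval. Over all genes, 5.45% had a lower ratio than Phf19 and 19.7% a lower ratio than Rbbp7, the next gene above it. Phf19 was less unusual among 2717 genes with a combined count similar to its own, 1378. Of these, 7.62% had a ratio at least as low, and 24.0% had at least as large a change in either direction. Phf1 (ENSMUSG00000024193, chr17:26933052-26937908, plus strand) had 421 and 424 counts, or 3.96 against 3.93 CPM, a log2 ratio of 0.01 (-0.19 to 0.21), so no difference was detectable for Phf1 at this depth. Cuta, on the opposite strand, overlaps 39.3% of its merged exon bases and had 3354 against 4873 counts, so the counts of Phf1 are uncertain.

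Within this family Mtf2 held the largest share in both pools, and its share was larger in the knockout pool. Per kilobase of merged exons, Mtf2 made up 89.5% of the summed level of Mtf2, Phf1 and Phf19 without Utx and 80.3% with it. Phf19 made up 4.52% and 11.8%, and Phf1 made up 6.03% and 7.87%. The ratio of Mtf2 to Phf19 counts was 22.4 without Utx and 7.66 with it, 2.92 times as high (2.60 to 3.29). The 3 genes summed to 104 against 77.9 CPM, a log2 ratio of 0.42 (0.38 to 0.46).

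**Figure D4:**
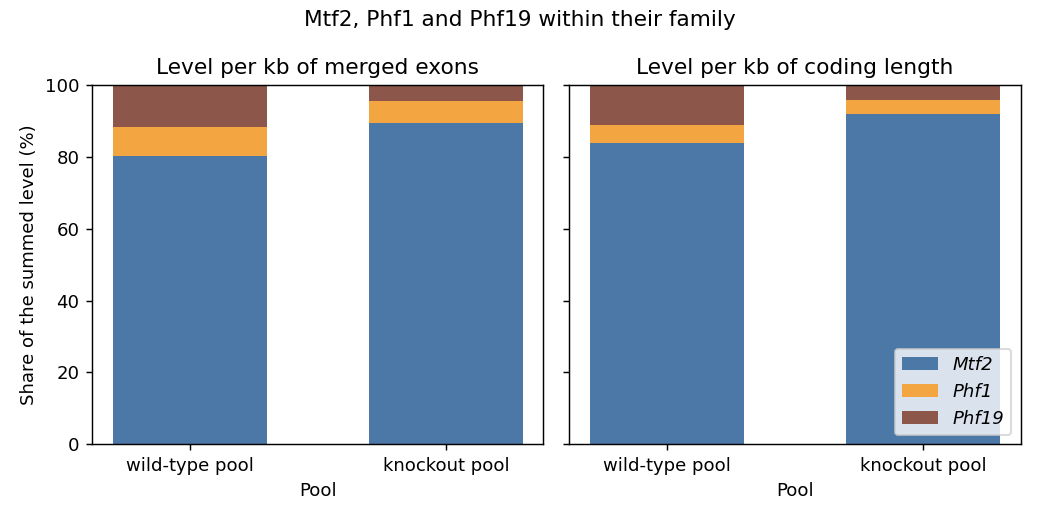
Share of Mtf2, Phf1 and Phf19 in their summed level (percent) in each pool, with levels per kilobase of merged exons (left) and per kilobase of coding length (right). By either length the Phf19 part is smaller and the Mtf2 part larger in the knockout pool, at 89.5% against 80.3% for Mtf2 by merged exons.

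Jarid2 (ENSMUSG00000038518, chr13:44729474-44921643, plus strand), which links PRC2 to chromatin marked by the sister complex PRC1, had 5320 against 4747 counts, or 50.0 against 43.9 CPM. Its log2 ratio was 0.19 (0.13 to 0.24). Relative to Mtf2 its counts were 0.776 times as high in the knockout pool as in the wild-type pool (0.738 to 0.815). Per kilobase of merged exons, Jarid2 made up 21.5% of the summed level of Jarid2 and the Polycomb-like genes without Utx and 24.0% with it.

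Levels between genes were compared per kilobase of merged exons. In the knockout pool Rbbp7 was highest at 56.1 CPM per kilobase, followed by Suz12 at 33.3 and Ezh2 at 32.8, whose counting intervals overlapped, and then Rbbp4 at 30.1. Mtf2 followed at 16.8, Eed at 6.97, Jarid2 at 5.14, Ezh1 at 2.68, Phf1 at 1.13 and Phf19 at 0.850 CPM per kilobase. In the wild-type pool Rbbp7 was at 77.8, Suz12 at 45.4 and Rbbp4 at 40.2 CPM per kilobase, with Ezh2 below all of these at 23.8. The order then ran from Mtf2 at 11.5 through Eed at 9.14, Jarid2 at 4.52 and Ezh1 at 2.52 to Phf19 at 1.69 and Phf1 at 1.13. By this length Ezh2 stood beside Suz12 in the knockout pool and under it in the wild-type pool. By coding length Ezh2 was above Suz12 in the knockout pool, at 97.9 against 74.0 CPM per kilobase, and under it in the wild-type pool, at 71.1 against 101 CPM per kilobase. The order of Rbbp4 and Rbbp7 also depends on the length: per kilobase of coding length Rbbp4 was above Rbbp7, at 206 against 128 CPM per kilobase in the knockout pool. The order of Phf1 and Phf19 in the knockout pool turned in the same way, with 2.20 for Phf1 and 2.47 for Phf19 by coding length.

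Other partners of PRC2 were also divided. Of 6 genes, 5 had at least 20 counts and none was called. Epop, a partner of the Polycomb-like forms, had the highest log2 ratio at 0.88 (0.72 to 1.05; 842 against 463 counts, listed under its older symbol E130012A19Rik). Aebp2, the partner of Jarid2 in the alternative form, was at 0.36 (0.32 to 0.40), on the same side of 0 as Jarid2. Lcor and Lcorl, whose loci encode PRC2-binding proteins, were at -0.35 and -0.24. Cdyl, which binds the methylated tail, was at -0.07. Ezhip, an inhibitor of the enzyme known from germ cells, had 0 counts in both pools, which allows up to 0.0282 CPM without Utx and 0.0278 CPM with it. The list's median was -0.07, equal to that of all genes.

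Rbbp4 and Rbbp7 also serve the NuRD and Sin3 deacetylase complexes, the CAF-1 histone chaperone and the Hat1 acetyltransferase. Of 18 such partners none was called, and their median log2 ratio was -0.21, against -0.42 and -0.47 for Rbbp4 and Rbbp7. The lowest were the Sin3 subunit Sap30 at -0.93 (18.9 against 35.9 CPM) and the NuRD subunit Mbd3 at -0.62, and the highest were Mta3 at 0.26 and Mbd2 at 0.04. The CAF-1 subunits Chaf1a and Chaf1b were at -0.53 and -0.42, and Hat1 at 0.02.

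Ezh2 and Eed are known targets of the E2F factors that drive the cell cycle, so 20 E2F and proliferation genes were set beside them. None was called, and their median was -0.21. They ran from E2f1 at -0.72 and Ccne2 at -0.61 to Mki67 at -0.07 and Rrm2 at 0.01. The log2 ratio of Ezh2, 0.46, lay above that of every one of the 20 genes, while those of Suz12 and Eed, -0.45 and -0.39, lay within their range.

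**Figure D5:**
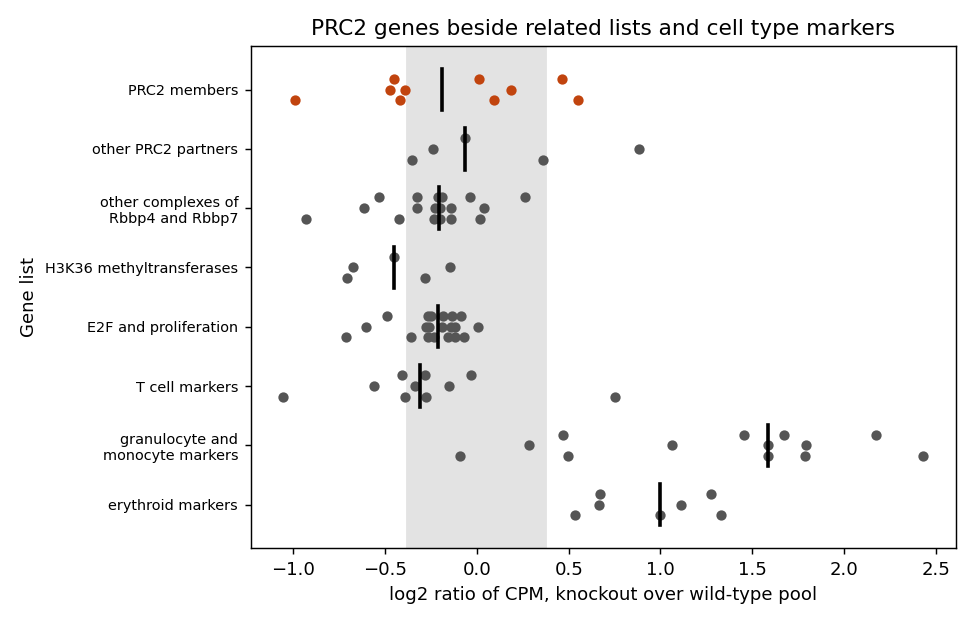
The log2 ratio of knockout over wild-type CPM for the PRC2 genes and the measured genes of 7 other lists, 1 point per gene, with black bars at each list's median and the range between the quartiles of all genes in grey. The PRC2 genes spread to both sides of 0, the proliferation genes end at 0.01 on the right, and the granulocyte and monocyte markers reach 2.43.

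Promoter windows of 250 bases before to 50 after each RefSeq start (GRCm38.p6) were searched for 4 spellings of an E2F-like motif, TTTCCCGC, TTTGGCGC, TTTCGCGC and TTTGCCGC, on both strands. All 10 genes had a window, with 12 windows in all. A match lay in 3 of the 12 windows, those of Ezh2, Suz12 and Phf19, against 2.26% of 32851 windows of all genes. The position of the match was base 4 after the start in Ezh2, and bases -219 and -208 relative to the start in Suz12 and Phf19, counted from the first base of the match in the window. CCAAT, on either strand, was in 8 of the 12 windows against 37.4% of all windows. The windows of all genes were not matched to the 12 in expression or base composition, so whether PRC2 genes hold more matches than like genes was not tested. A match is a description of letters and not of binding. The 3 windows with an E2F-like match are shown because they belong to genes with different ratios, 0.46 for Ezh2, -0.45 for Suz12 and -0.99 for Phf19; the match is in capitals, and each is written 5′ to 3′ on the strand of its gene.
Ezh2 (chr6:47594981-47595280, minus strand): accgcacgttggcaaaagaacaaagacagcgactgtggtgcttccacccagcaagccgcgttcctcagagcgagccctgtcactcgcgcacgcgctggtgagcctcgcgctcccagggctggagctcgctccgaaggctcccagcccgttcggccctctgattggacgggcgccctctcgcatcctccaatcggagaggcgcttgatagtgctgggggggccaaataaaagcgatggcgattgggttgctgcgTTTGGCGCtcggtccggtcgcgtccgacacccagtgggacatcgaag
Suz12 (chr11:79992856-79993155, plus strand): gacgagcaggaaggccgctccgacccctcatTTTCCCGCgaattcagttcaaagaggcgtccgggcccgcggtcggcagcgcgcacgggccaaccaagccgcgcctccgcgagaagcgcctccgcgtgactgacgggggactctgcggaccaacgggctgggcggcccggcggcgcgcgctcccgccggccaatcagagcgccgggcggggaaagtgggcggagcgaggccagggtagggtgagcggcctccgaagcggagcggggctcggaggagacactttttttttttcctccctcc
Phf19 (chr2:34913927-34914226, minus strand): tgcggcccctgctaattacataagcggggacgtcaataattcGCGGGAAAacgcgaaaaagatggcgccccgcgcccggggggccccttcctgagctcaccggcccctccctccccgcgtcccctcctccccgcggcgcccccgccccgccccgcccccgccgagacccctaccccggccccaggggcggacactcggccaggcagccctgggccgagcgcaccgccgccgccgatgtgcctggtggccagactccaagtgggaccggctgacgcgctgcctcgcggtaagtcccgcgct

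The summed T cell markers were lower in the knockout pool, although Cd8b1 was higher there, so the PRC2 genes were also expressed relative to them, a scaling chosen after seeing the data. Relative to the sum of the 10 markers, which shifts the median of all genes by 0.35, the log2 ratio was -0.10 for Suz12, -0.07 for Rbbp4, -0.12 for Rbbp7 and -0.04 for Eed, whose interval of -0.11 to 0.03 held 0. Ezh2 stood at 0.81, Mtf2 at 0.90 and Phf19 at -0.64 on that scale. Part of that shift rests on Thy1: without it the shift was 0.15, and Suz12 stood at -0.30, Eed at -0.24, Ezh2 at 0.61, Mtf2 at 0.70 and Phf19 at -0.84. On these scales and the others tried, Ezh2 and Mtf2 stayed above 0 and Suz12, Rbbp4, Rbbp7, Eed and Phf19 stayed below it.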

How the data were processed

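The leukaemias were profiled by poly(A)-selected, strand-marked RNA-seq (50-base reads from 1 end), per the labels' protocols; the series' design text also allows for ribosomal RNA depletion. The submitters' processing notes name CASAVA, TopHat and the mouse build mm9, without versions. Neither the gene annotation, nor the program that counted reads, nor which libraries entered each pool is stated.

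The authors deposited 1 DEGseq table of whole read counts, pooled by genotype. It has 0 columns of single samples, so models across samples could not be fitted. Column 1 of the values was read as the knockout pool from the order of genotypes in the table's title, and Kdm6a was then checked. The deposited log2 fold changes, p-values and q-values are the authors' DEGseq results on these pools and served for comparison. The z score deposited by the authors was not used.

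Log2 ratios used the column totals and a pseudocount of 0.5 counts. Lengths, positions and overlaps came from GENCODE M21 (GRCm38), which is not the authors' build; 98.4% of genes with at least 100 counts matched by identifier. Of 147 list genes 146 matched 1 row, and list members were measured from 20 combined counts. Of 13 lists beside the 10 genes, the rule was to name called members and the 2 highest and 2 lowest with at least 100 counts. It was followed for the lists of chromatin, proliferation and PRC2 target genes; the cell type marker and sex-linked lists are given by sums and counts with a few genes named. Other genes were named after their values were seen. The members and lists were chosen with earlier results of these data known. No gene was ranked by likeness of pattern, since 2 pools give none. The calls were tested on simulated data for the knockout and wild-type pools (Poisson, 13833 genes): 100% of 200 genes given a log2 change of 1.5 were recovered, 0 unchanged genes were called and 95.1% of intervals held the true ratio. The simulated counts held counting error only, as the intervals assume, and no spread between tumours. The planted change was larger than the ratio of any of the 10 genes. The simulation therefore checks the calculation and not how calls behave in these pools. Other settings were TMM and upper quartile scaling (edgeR 4.0.16), median of ratios (DESeq2 1.42.0), totals without mitochondrial, erythroid, granulocyte and monocyte genes, other count minimums, a pseudocount of 5 and coding length. Added after seeing the data were scaling to T cell markers, the other lists' medians under each scaling and the Jarid2 share. The grouping of Eed, Suz12, Rbbp4 and Rbbp7 was not planned either. Intervals and motif searches used Python 3.11.15 and scipy 1.17.1.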

Additional observations from a re-analysis of the deposited data

How the results depend on the processing

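None of the 10 genes was called at 2-fold under any setting. The number past 1.5-fold was 1 with column totals, upper quartile scaling or a pseudocount of 5; it was 2 (Mtf2 and Phf19) with TMM, with the median of ratios and with totals that leave out mitochondrial, erythroid, granulocyte and monocyte genes, and 3 (Ezh2, Mtf2 and Phf19) with either T cell marker scaling. The median log2 ratio of all genes was -0.07 with totals, 0.01 with TMM and 0.02 with the reduced totals. Over these settings, leaving aside T cell marker scaling, all 10 genes kept their sign, with Ezh2 from 0.46 to 0.55, Mtf2 from 0.55 to 0.64, Suz12 from -0.45 to -0.36 and Phf19 from -0.99 to -0.90. The mean of the other PRC2 partners, 0.12, and their median, -0.07, differ in sign; the mean and median of B cell markers were 0.02 and 0.32, and their median was -0.12 with a minimum of 100 counts. Scaling to the summed T cell markers changed the sign of some list medians. It moved both the partners of Rbbp4 and Rbbp7 outside PRC2 and the E2F and proliferation genes from -0.21 to 0.14. Both medians were -0.06 when Thy1 was left out of the sum. The median of the 10 PRC2 genes themselves went from -0.19 to 0.16, and was -0.04 without Thy1. That of the other PRC2 partners went from -0.07 to 0.29, and was 0.09 without Thy1. The share of all genes called at 2-fold was 10.9% with a minimum of 500 counts and 22.3% with 20.

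By coding length in place of merged exons, Ezh1 made up 8.31% of the Ezh1 and Ezh2 level without Utx and 10.5% with it. Rbbp7 made up 38.3% and 39.2% of the Rbbp4 and Rbbp7 level, against 65.1% and 65.9% by merged exons. Mtf2 made up 92.0% and 83.8% of its family and Phf1 3.76% and 4.98%; Jarid2 made up 18.7% and 21.3% of its sum. These lengths differ in the untranslated and retained parts they hold.

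No paired analysis was possible because the deposited values are pooled by genotype and carry no replicate numbers; leaving out samples could not be done either. Of the 10 genes, Phf1 and Phf19 rest on the fewest counts and have the widest intervals.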

Other observations

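The lists of H3K36 methyltransferase genes and of known PRC2 target genes were not described above. With column totals, all 5 H3K36 methyltransferase genes, whose mark is known to limit PRC2, had log2 ratios below 0, with a median of -0.45, and none was called. Nsd2 (listed as Whsc1) was lowest at -0.71 (105 against 171 CPM) and Setd2 next at -0.68, while Nsd3 (listed as Whsc1l1) was highest at -0.15 and Nsd1 stood at -0.28. The T cell markers had a median of -0.31 beside them. Scaled to the summed T cell markers, the median of the H3K36 methyltransferase genes was -0.10, and it was -0.30 when Thy1 was left out of the sum.

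Of 27 genes known as PRC2 targets in other mouse cells, 15 had at least 20 counts, 10 had the 100 that a call needs, and 7 had 0 in both pools. Called higher were Hoxa7 (3.13; 288 against 33 counts), Cdkn2b (2.53; 298 against 52 counts), Hoxb4 (1.4997; 1528 against 548 counts), Lhx2 (1.497; 76 against 27 counts) and Hoxa9 (1.39; 135 against 52 counts), and none was called lower, while 11.2% of all genes were called higher. Cdkn2a and Pax9 were lowest among those with at least 100 counts, at -0.83 and -0.44, and Pax6, with 1160 against 1143 counts, stood at 0.04. Among those called, only Hoxb4 had at least 500 combined counts. Over all genes the share called in either direction falls with depth, from 16.6% with a minimum of 100 counts to 10.9% with 500. The 11.2% is therefore not matched in depth to these genes. Members reach the count minimum more easily where one pool is high, so the count of higher genes describes only those measured. Granulocyte and monocyte markers, with a median of 1.59, were higher in the same pool, and their part in these values was not tested.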
